A study of Mus musculus with 40 samples.

Results

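The genes described here are the nuclear genes of oxidative phosphorylation, the 103 of 15958 genes in the deposited expression table whose symbols follow the naming patterns of the respiratory chain and ATP synthase (Nduf, Cox4 to Cox8, Atp5, Uqcr and the Sdh genes a to d). Of these, 79 encode subunits: 36 of complex I, 4 of complex II, 8 of complex III, 14 of complex IV and 17 of complex V. The other 24 matches are 7 assembly factors of complex I, 15 loci annotated by RefSeq as pseudogenes, 1 further gene copy (Ndufb4c) and the paralog Cox7a2l, which is not a subunit. Ndufa4, named for complex I but since placed in complex IV, was counted there. All 103 members passed the filter on low values in ileum and liver and 101 passed in duodenum, where Cox8b and Cox6b2 fell below it with mean levels of 0.65 and 0.96 log2 TPM.

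The study compared wild-type male C57BL/6 mice that had a sham operation or small bowel resection (SBR) at 8 weeks of age, with 50 to 60% of the bowel removed according to the sample labels, whereas the methods of the study give a larger extent. From 3 weeks after surgery the mice were dosed daily for 7 weeks, either with vehicle or with 30 mg/kg of WUSTL0717, an oral agonist of the liver X receptor (LXR) that the study took to act mainly in the gut. All sham mice had vehicle, so the 3 groups were sham vehicle, SBR vehicle and SBR WUSTL0717, and no sham group with the drug was analysed here. Whole-tissue RNA of 40 libraries was sequenced, with 3, 4 and 4 libraries of these groups in duodenum, the same numbers in ileum, and 5, 8 and 5 in liver.

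Oxidative phosphorylation takes place in the inner mitochondrial membrane. Complex I accepts electrons from NADH and complex II from succinate, both pass them through ubiquinone to complex III, cytochrome c carries them on to complex IV, which reduces oxygen, and complex V uses the resulting proton gradient to make ATP. Most subunits are encoded in the nucleus, and a small set of core subunits is encoded in mitochondrial DNA. Hepatocytes and absorptive enterocytes are both rich in mitochondria, and the transcription factors NRF1, GABPA and ERRA, with the coactivators PGC-1alpha and PGC-1beta, are textbook regulators of the nuclear genes.

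Promoter sequence was available from RefSeq (GRCm38.p6) for 67 of the 79 subunit genes. In the 250 bases before the start, on either strand, the NRF1 core (GCGCA and GCGC with any base between them) was found in 13 of them (19.4%), against 8.53% of all 9787 promoters of genes in the table and 4.23% of the 27025 promoters in the reference. The GABPA motif CCGGAAG was found in 12 (17.9%, against 14.4% of table genes and 7.83% of all), the YY1 motif AAGATGGCG in 1 (1.49%, against 1.29% and 0.710%) and the ERRA motif TCAAGGTCA in 1 (1.49%, against 0.358% and 0.422%). The perfect LXR element, AGGTCA repeated after a gap of 4 bases, was found in none of the 67 and in 4 of all reference promoters (0.0148%). A match shows only that these letters are present. Stretches of 80 bases that hold the NRF1 core are printed for 4 genes: Sdha and Sdhd of complex II, whose genes were lower in ileum than in duodenum and, centred, in SBR vehicle than in sham livers, Ndufb4 of complex I, which holds the core 3 times, and Cox6a1 of complex IV, the subunit gene with the highest mean level in duodenum and liver. Capitals mark the NRF1 core and, in Sdhd, also the GABPA motif read from the other strand. All 4 genes lie on the minus strand, and the sequences are written in the direction of the gene.
Sdha: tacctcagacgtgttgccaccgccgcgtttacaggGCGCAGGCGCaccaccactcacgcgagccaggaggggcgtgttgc
Sdhd: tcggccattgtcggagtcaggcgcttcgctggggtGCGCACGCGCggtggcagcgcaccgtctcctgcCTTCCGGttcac
Ndufb4: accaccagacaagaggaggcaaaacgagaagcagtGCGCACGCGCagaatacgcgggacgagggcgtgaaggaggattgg
Cox6a1: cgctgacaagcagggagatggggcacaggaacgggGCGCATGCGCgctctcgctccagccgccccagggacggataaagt
The Sdha stretch is chr13:74350294-74350373 and runs from 133 to 54 bases before the start. The Sdhd stretch is chr9:50603884-50603963, from 114 to 35 bases before the start. The Ndufb4 stretch is chr16:37654515-37654594, from 226 to 147 bases before the start, and that of Cox6a1 is chr5:115349076-115349155, from 197 to 118 bases before it. The searched 250 bases held 3 matches to the NRF1 core in Sdha and in Ndufb4, 2 in Cox6a1 and 1 in Sdhd.

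Values are log2 TPM, that is, expression scaled for transcript length and for the total of the library, after a batch adjustment by the authors that moved each gene's values between intestine and liver, so levels were compared between duodenum and ileum but not between gut and liver. For the same reason marker genes could not check the labels across organs: the mean of 9 enterocyte markers ran from 6.67 to 7.41 log2 TPM in liver and from 5.86 to 7.50 in gut. The gene with the highest mean level was Cox6a1 in duodenum (10.22) and liver (10.17) and Cox8a in ileum (9.12), and Cox8b had the lowest in each tissue (0.65, 1.37 and 1.07 in duodenum, ileum and liver). The median subunit had a mean level of 6.90, 5.90 and 7.12 log2 TPM in the 3 tissues, against 2.71, 3.40 and 3.45 over all genes. Subunit transcripts were short, with a median length of 983 bases over 77 genes (360 to 6310), against 2548 over all genes and 1054 for cytosolic ribosomal proteins. The library named liver SBR vehicle 2 had the lowest subunit mean of all livers, 6.27, and was the lowest of its group for many members. Liver SBR vehicle 7 had a mean of pancreatic acinar markers of 7.32, against 2.10 to 2.37 in the other livers, and the duodenal libraries ranged from 1.77 to 7.52. The counts of called members in liver that involve the SBR vehicle group are therefore also given without each of these 2 livers. In duodenum the share of the summed linear TPM taken by the 13 mitochondrially encoded subunits ran from 0.707 to 9.71%.

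In liver, subunit genes were lower in SBR vehicle than in sham mice relative to the median gene of the same library, and on this scale SBR WUSTL0717 livers lay between them on average. As deposited, and as a share of the summed TPM, the mean of the SBR WUSTL0717 livers was instead the highest of the 3 groups. As deposited, the median gene was 0.245 higher (log2) in SBR vehicle than in sham livers, and it was 0.06 lower once the median of each library was subtracted (below, centred values). Changes in liver are given on both scales, and gene positions are those of the GRCm38 annotation.
As deposited, the mean over the 79 subunits in the sham livers had a lowest, median and highest value of 6.77, 6.98 and 7.13 log2 TPM (mean 6.99 ± 0.14 SD, n = 5). It was 6.27, 7.00 and 7.11 in SBR vehicle (6.88 ± 0.28, n = 8) and 7.05, 7.13 and 7.22 in SBR WUSTL0717 (7.12 ± 0.07, n = 5). The 3 groups overlapped on this scale. After centring the values were 3.64, 3.76 and 3.80 in sham (3.73 ± 0.06), 3.13, 3.34 and 3.38 in SBR vehicle (3.32 ± 0.08), and 3.42, 3.57 and 3.78 in SBR WUSTL0717 (3.57 ± 0.13). All 8 SBR vehicle livers were then below all sham livers and all drug-treated livers, while drug-treated and sham livers overlapped. As a share of the summed linear TPM, the subunits made up 2.23% ± 0.245 in sham, 1.92% ± 0.337 in SBR vehicle and 2.42% ± 0.262 in SBR WUSTL0717 livers, with ranges of 1.85 to 2.50, 1.24 to 2.20 and 2.16 to 2.85% that overlapped.

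**Figure D1:**
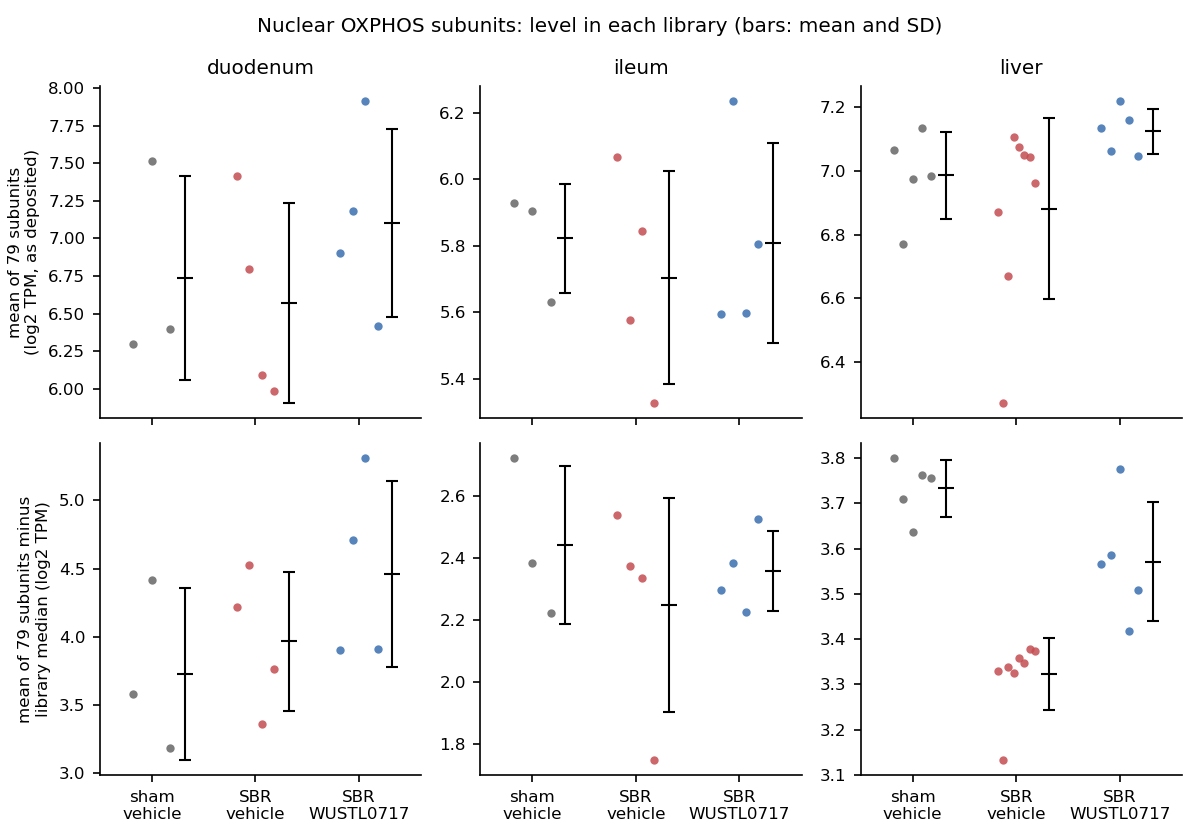
Mean of the 79 subunit genes in each of the 40 libraries, in duodenum, ileum and liver (columns), as deposited in log2 TPM (upper row) and after subtraction of the library median (lower row). Points are libraries and bars are the group mean and SD. In the lower liver panel the 8 SBR vehicle libraries (3.13 to 3.38) lie below the sham (3.64 to 3.80) and SBR WUSTL0717 (3.42 to 3.78) libraries.

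Between SBR vehicle and sham livers, 6 of the 103 members were called as deposited (limma, Benjamini-Hochberg adjusted p under 0.05 over 15896 genes), 1 higher and 5 lower. Of all genes 41.9% were called, 37.5% higher and 4.48% lower, and of the members 5.83%. The estimate was below 0 for 87 members, 13 had an unadjusted p under 0.05, and the median difference was −0.12 (0.918-fold), against +0.245 over all genes. After centring, 92 members fell and 1 rose, where 28.8% of all genes fell and 20.4% rose, and the members' median was −0.43 (0.743-fold) against −0.06 over all genes. The groups did not overlap for 76 members, lower in SBR vehicle, where 15.4% of all genes were lower without overlap. The count as deposited ranged from 1 to 14 when 1 library was left out: it was 1 without sham 1 or SBR vehicle 3, 2 without sham 3, 3 without sham 4 or SBR vehicle 6, 14 without SBR vehicle 4, 7 without SBR vehicle 2 and 5 without SBR vehicle 7. The median as deposited was −0.02 without SBR vehicle 2 and −0.15 without SBR vehicle 7. The centred count ranged from 91 to 95 and was 93 without SBR vehicle 2 and 94 without SBR vehicle 7. As deposited, an unmoderated two-sample test called 1 member, higher, so that the 5 lower calls were lost, and a replicate block called more members than the main fit.

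By complex, the centred values fell for 34 of 36 complex I genes (median −0.41), 4 of 4 of complex II (−0.45), 8 of 8 of complex III (−0.38), 11 of 14 of complex IV (−0.37) and 17 of 17 of complex V (−0.45). As deposited the medians were −0.10, −0.14, −0.07, −0.06 and −0.14, with 1 gene lower in each of complexes I, II and V, none in III, and 1 higher in IV. The mean over the 36 complex I genes, centred, ran from 3.22 to 3.36 in sham, 2.68 to 2.94 in SBR vehicle and 2.98 to 3.34 in SBR WUSTL0717 livers. For complex II these ranges were 4.57 to 4.78, 4.06 to 4.25 and 4.32 to 4.76, and for complex V 3.77 to 3.96, 3.20 to 3.48 and 3.55 to 3.90. In each of these complexes SBR vehicle livers overlapped with neither of the other groups. Complex III ran from 4.20 to 4.48 in SBR vehicle, below the 4.53 to 4.90 of the drug-treated group, and complex IV from 3.35 to 3.59, which reached into the 3.51 to 3.82 of the drug-treated group.

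**Figure D2:**
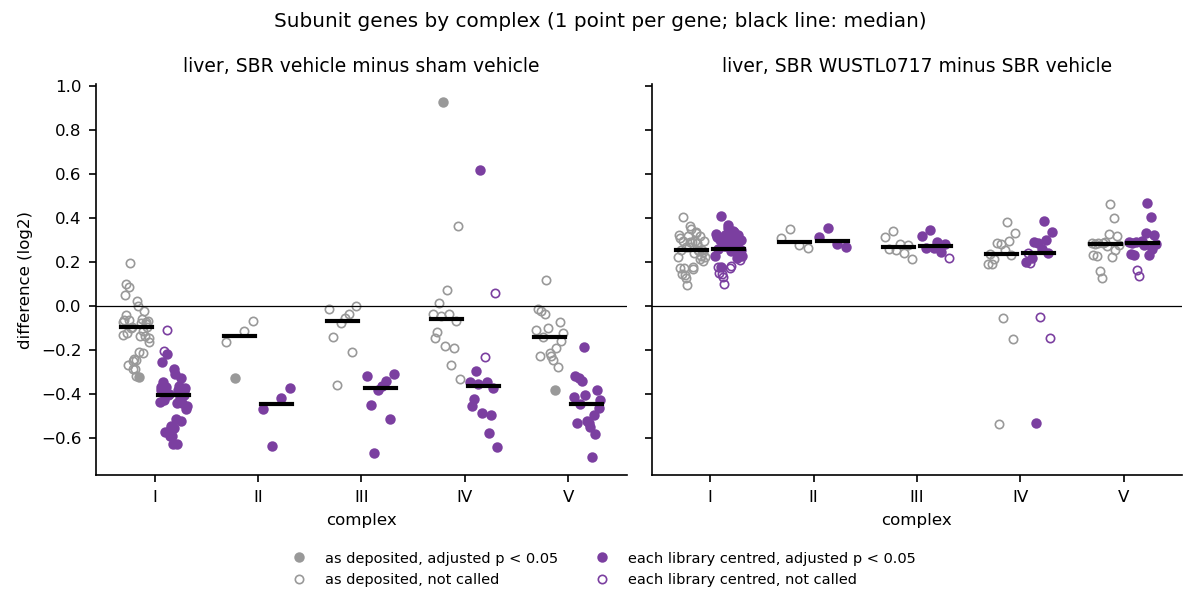
Difference in liver (log2) for each subunit gene, grouped by complex, for SBR vehicle minus sham vehicle (left) and SBR WUSTL0717 minus SBR vehicle (right). Grey points are values as deposited and purple points centred values, filled where the adjusted p is under 0.05, with a black line at the median. On the left the centred medians lie between −0.45 and −0.37, and on the right between 0.24 and 0.30.

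**Figure D3:**
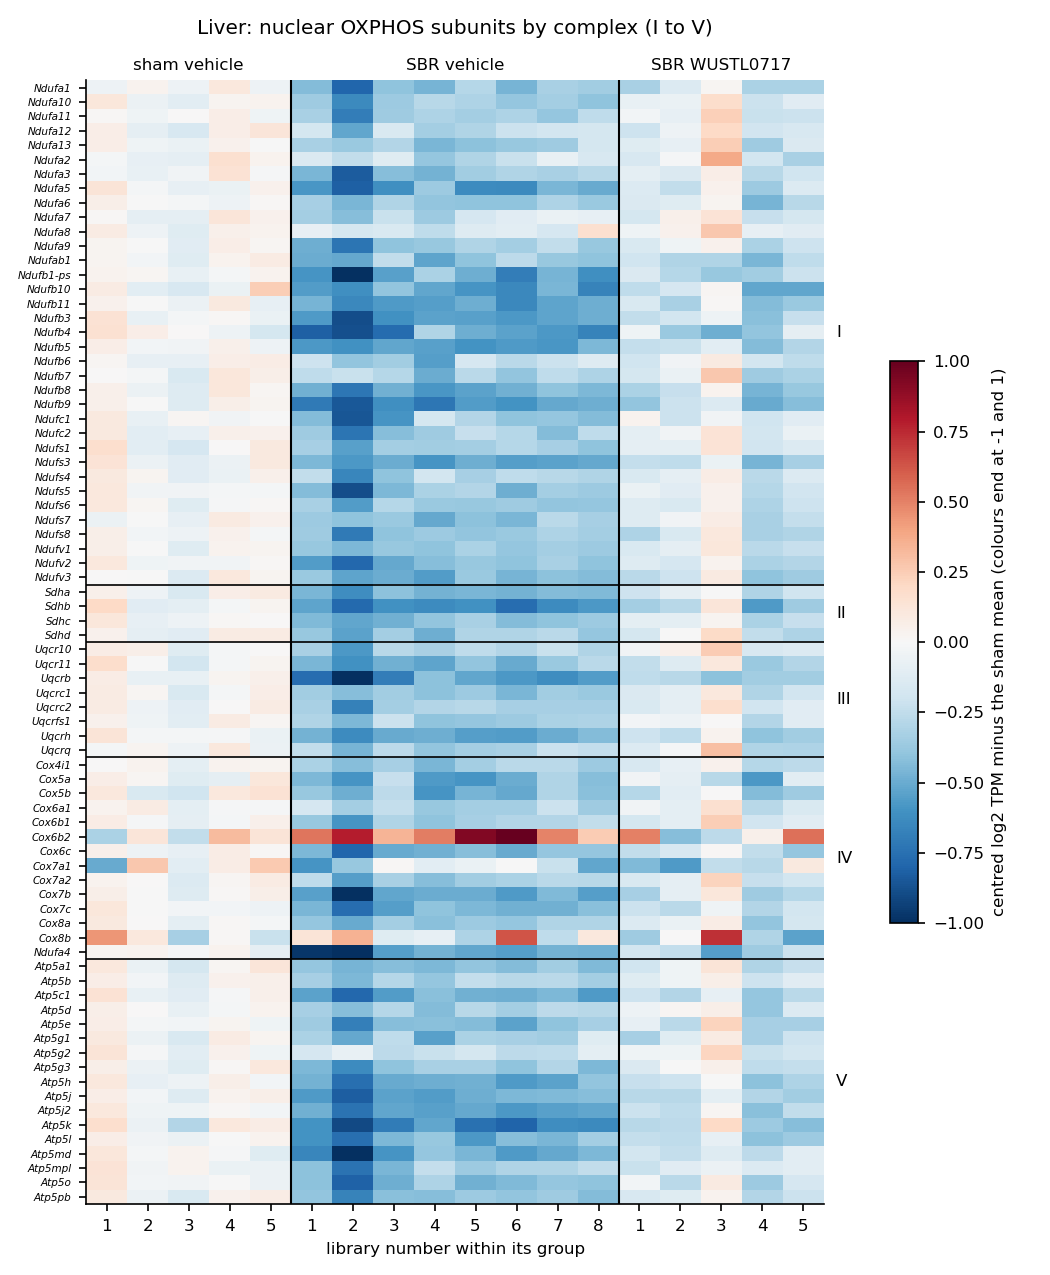
Centred log2 TPM of the subunit genes (rows, by complex, with 1 complex I gene not shown) in the 18 liver libraries (columns), minus the mean of the 5 sham livers, with colours ending at −1 and 1. Most rows are blue, that is lower, across the 8 SBR vehicle livers, deepest in number 2, whereas Cox6b2 is red there.

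Complex II, which oxidises succinate to fumarate and also works in the TCA cycle, showed the pattern in all of its genes. Sdhb (chr4:140961203-140979193), its iron-sulfur subunit, had 8.17, 7.66, 7.95, 8.06 and 7.96 log2 TPM in the 5 sham livers, 7.07, 7.72 and 7.86 as lowest, median and highest in SBR vehicle, and 7.93, 7.90, 8.27, 7.88 and 7.88 in SBR WUSTL0717. The drug-treated livers were all above the 8 SBR vehicle livers, and sham livers overlapped with both. It fell by 0.33 ± 0.13 (SE) from sham to SBR vehicle as deposited (adjusted p = 0.0397) and by 0.64 ± 0.086 after centring (adjusted p = 8.75e-06). Centred, it was 4.90, 4.59, 4.61, 4.69 and 4.73 in sham livers and 3.93, 4.09 and 4.18 in SBR vehicle. Sdha (chr13:74322254-74350280), the flavoprotein that binds succinate, had 8.36, 8.06, 8.23, 8.48 and 8.36 in sham livers, 7.56, 8.24 and 8.35 in SBR vehicle and 8.40, 8.44, 8.49, 8.48 and 8.38 in SBR WUSTL0717. Sham and SBR vehicle livers overlapped as deposited, where the difference was −0.17 (adjusted p = 0.263). Centred, they did not: 5.10, 5.00, 4.89, 5.11 and 5.13 in sham against 4.42 to 4.64 in SBR vehicle, a fall of 0.47 ± 0.055 (adjusted p = 1.59e-06). The membrane anchors Sdhc and Sdhd fell by 0.42 and 0.37 centred, and neither was called as deposited.

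Of complex I, Ndufb5 (chr3:32736990-32751566), an accessory subunit of the membrane arm, had the smallest p after centring. Its centred level was 1.27, 1.18, 1.17, 1.26 and 1.16 in sham livers, 0.60, 0.64 and 0.76 as lowest, median and highest in SBR vehicle, and 0.97, 0.99, 1.10, 0.77 and 0.92 in SBR WUSTL0717. The 3 groups did not overlap, and the fall from sham to SBR vehicle was 0.56 ± 0.047 (adjusted p = 4.79e-08). Ndufb9 (chr15:58933756-58939488), of the same arm, was the complex I gene called as deposited, with 7.48, 7.22, 7.38, 7.60 and 7.42 in sham, 6.46, 7.25 and 7.33 in SBR vehicle and 7.34, 7.43, 7.47, 7.41 and 7.28 in SBR WUSTL0717. Its groups overlapped as deposited, and it fell by 0.33 ± 0.13 (adjusted p = 0.0443), or by 0.63 ± 0.068 centred. Core subunits of the peripheral arm fell as well after centring: Ndufs3 by 0.52, Ndufs1 by 0.37 and Ndufv1, which binds NADH, by 0.38, the last 2 with differences of −0.06 and −0.07 as deposited.

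In complex III, Uqcrc1, a core subunit, and Uqcrfs1, the Rieske iron-sulfur protein, fell by 0.39 and 0.34 centred. Uqcrc1 ran from 4.68 to 4.92 in sham, 4.37 to 4.49 in SBR vehicle and 4.53 to 4.94 in SBR WUSTL0717 livers, so that SBR vehicle livers overlapped with neither group. In complex IV, Cox4i1 and Cox5a, which are needed for its assembly around the mitochondrially encoded core, fell by 0.35 and 0.46, and Ndufa4 by 0.64. In complex V, Atp5b, the catalytic beta subunit, fell by 0.32 centred, from 6.22 to 6.42 in sham to 5.91 to 6.12 in SBR vehicle, and its difference as deposited was −0.01. Atp5k (chr5:108433244-108434448), the small membrane subunit e, had 7.62, 7.18, 7.23, 7.66 and 7.49 in sham, 6.42, 7.13 and 7.45 in SBR vehicle and 7.48, 7.40, 7.83, 7.56 and 7.30 in SBR WUSTL0717 as deposited. The groups overlapped on this scale, and it fell by 0.38 ± 0.14 (adjusted p = 0.0379) and by 0.69 ± 0.098 centred (adjusted p = 1.47e-05). Atp5j2 (chr5:145183698-145192062), subunit f of the same membrane sector, fell by 0.55 ± 0.059 centred (adjusted p = 6.49e-07), and Atp5g1 and Atp5g3, which together with Atp5g2 encode the same mature c subunit of the rotor ring, fell by 0.34 and 0.41 against 0.19 for Atp5g2 (adjusted p = 0.0193).

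Cox6b2 (chr7:4751792-4753094), an isoform of complex IV subunit 6B best known from testis, rose in SBR vehicle livers on both scales. Its level was 1.14, 1.37, 1.28, 1.88 and 1.54 log2 TPM in sham, 1.86, 2.31 and 2.99 as lowest, median and highest in SBR vehicle and 2.27, 1.24, 1.37, 1.98 and 2.28 in SBR WUSTL0717. Its highest sham liver was just above its lowest SBR vehicle liver, and the drug-treated livers spread over both ranges. It rose by 0.92 ± 0.21 as deposited (adjusted p = 0.00166) and by 0.62 centred (adjusted p = 0.00859), whereas its common counterpart Cox6b1 fell by 0.36 centred. Cox7a1 and Cox8b, isoforms best known from heart and skeletal muscle, were not called in liver on either scale (centred −0.24, adjusted p = 0.181, and 0.06, adjusted p = 0.843), and their common counterparts Cox7a2 and Cox8a fell by 0.34 and 0.38 centred. Cox8b's own lowest value in liver, 0.60 log2 TPM, was shared by 3 of the 18 livers. Of the pseudogenes, Atp5k-ps2 and Atp5l-ps2 fell as deposited by 0.93 and 0.44 (adjusted p = 0.0422 and 0.0447). Reads from a pseudogene and its parent gene can be hard to tell apart, so these 2 values, like those of the other pseudogenes, are uncertain. Besides Cox7a1 and Cox8b, the members not called after centring were Ndufaf3, Ndufaf5, Ndufaf7, Ndufa2, Ndufa8, Ndufa12-ps, Uqcrh-ps2 and Ndufb4c.

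The other genes of the pathway were read from the same fits. Of the 13 subunits encoded in mitochondrial DNA, 8 fell as deposited (median −0.47), among them mt-Cytb by 0.72 and mt-Nd4l by 0.61, and all 13 fell after centring (−0.77), while their mean share of the summed TPM was 4.26% in sham, 2.88% in SBR vehicle and 3.52% in SBR WUSTL0717. Of the 13 TCA cycle enzymes 3 rose as deposited, citrate synthase (Cs) by 0.53, Mdh2 by 0.45 and Idh3a by 0.38. Centred, 7 of them fell and 1 rose, with Fh1, which acts next to complex II, lower by 0.62 and Cs higher by 0.22. Of 10 regulators measured, Pprc1 and Nrf1 rose by 0.82 and 0.43 and Ppargc1b, the gene of PGC-1beta, fell by 0.38 as deposited. Centred, 7 fell and Pprc1 rose, with Ppargc1b lower by 0.69, Tfb2m by 0.51 and Ppargc1a by 0.43. Of 29 further assembly factors measured, 3 rose as deposited and 17 fell and 1 rose centred. Of 79 mitochondrial ribosomal proteins 5 rose as deposited and 53 fell centred (median −0.22), and of 84 cytosolic ribosomal proteins 16 rose as deposited and 24 fell and 3 rose centred (−0.08). Cytochrome c (Cycs) and cytochrome c1 (Cyc1) both fell centred, by 0.32 and 0.39, and neither was called as deposited. Of 10 genes of the mitochondrial outer membrane and import, 2 rose as deposited and 5 fell centred.

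In whole tissue, fewer cells of a type and less RNA per cell cannot be told apart. The 6 hepatocyte markers had a mean level of 7.74 to 8.16 in sham, 7.08 to 8.10 in SBR vehicle and 8.04 to 8.37 in SBR WUSTL0717 livers as deposited. Of them 3 fell and 1 (Cyp3a11) rose as deposited and 5 fell after centring, with Alb not called as deposited (−0.24, adjusted p = 0.338) and lower by 0.54 centred. All 5 stellate cell and fibroblast markers rose in SBR vehicle livers (median 2.08), their mean running from 3.47 to 4.03 in sham, 5.42 to 6.33 in SBR vehicle and 4.64 to 5.68 in SBR WUSTL0717. All 4 cholangiocyte markers rose too (median 1.98), with 3.41 to 4.32, 5.51 to 6.25 and 4.54 to 5.68 in the 3 groups. The part of these markers in the difference of the subunit genes was not tested.

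SBR WUSTL0717 livers were compared with the same 8 SBR vehicle livers, so the 2 contrasts share these libraries. As deposited, 98 of the 103 members had an estimate above 0, with a median of +0.27 (1.21-fold) against +0.02 over all genes. A single member rose (adjusted p under 0.05), where 1.45% of all genes rose and 4.12% were called, and 42 members had an unadjusted p under 0.05. This member was Ndufa11b (chr16:22053510-22053933), a locus annotated as a pseudogene of Ndufa11, with 2.05, 1.87, 2.19, 2.44, 2.22, 1.61, 2.48 and 2.23 in the SBR vehicle livers and 2.73, 2.47, 3.04, 2.55 and 2.68 in the drug-treated livers. The highest SBR vehicle liver was just above the lowest drug-treated liver, and the rise was 0.56 ± 0.15 (adjusted p = 0.0388). Its reads can be hard to tell apart from those of Ndufa11, so this value is uncertain. Counts as deposited ran from 0 to 3 with 1 library left out. The count was 0 without SBR vehicle 1, 5 or 6 or SBR WUSTL0717 1, 2, 3 or 5, and 3 without SBR vehicle 4. It was 1 without SBR vehicle 2 and without SBR vehicle 7. After centring, 69 members rose and 1 fell, where 11.5% of all genes rose and 8.2% fell, and 32 were higher in every drug-treated than in every SBR vehicle liver, where this held for 3.67% of all genes. The count of 70 centred calls ran from 48 to 81 with 1 library left out, and was 65 without SBR vehicle 2 and 70 without SBR vehicle 7.

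By complex, 28 of 36 genes of complex I rose centred in SBR WUSTL0717 livers (median 0.26), 4 of 4 of complex II (0.30), 7 of 8 of complex III (0.27), 9 of 14 of complex IV (0.24) and 15 of 17 of complex V (0.29). The medians as deposited were nearly the same, at 0.25, 0.29, 0.27, 0.23 and 0.28, with no subunit called. Ndufb5 rose by 0.30 ± 0.047 centred (adjusted p = 0.000585), Sdha by 0.31 (adjusted p = 0.00101) and Sdhb by 0.35 (adjusted p = 0.00826). Ndufa5, an accessory subunit of the peripheral arm of complex I, rose by 0.41 (adjusted p = 0.00106), Atp5k by 0.47 and Atp5b by 0.24. Cox5a was not called (+0.24, adjusted p = 0.0558). Cox6b2 fell by 0.53 centred (adjusted p = 0.0449) and was not called as deposited (−0.54, adjusted p = 0.174). Of the other lists, 9 of 13 TCA cycle enzymes, 18 of 79 mitochondrial ribosomal proteins and 1 of 13 mitochondrially encoded subunits (mt-Co2, +0.39) rose centred, and none of these was called as deposited. Of the markers, 4 of the 5 stellate cell and fibroblast genes and 3 of the 4 cholangiocyte genes fell on both scales, and 2 of 6 hepatocyte genes rose centred. Their part in the subunit difference was not tested.

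Against sham livers, SBR WUSTL0717 livers had 94 of 103 members with an estimate above 0 as deposited, with a median of +0.14 that was below the +0.27 of all genes and turned to −0.16 after centring. With limma as deposited, no member was called, where 28.7% of all genes were called, and 4 had an unadjusted p under 0.05. The smallest adjusted p, 0.0694, belonged to Ndufa8 (+0.32), followed by Atp5g2 and Ndufb4c. Atp5g2 differed by 0.24 as deposited and by −0.06 centred. With library weights, an unmoderated test or a replicate block, some members were called, all higher, which is opposite to the centred calls that follow (counts in the last section). After centring 23 members fell, where 8.93% of all genes fell, among them Ndufb9 by 0.33 (adjusted p = 0.00483), Ndufs3 by 0.27 (adjusted p = 0.00601), Ndufb5 by 0.26 (adjusted p = 0.00189) and Sdhb by 0.29 (adjusted p = 0.0441). Of these 23, subunits of complex I were 12, of complex II 1, of complex III 2, of complex IV 1 and of complex V 5, and the other 2 were the complex I assembly factors Ndufaf4 and Ndufaf6. This count ran from 6 to 44 with 1 library left out: it was 8 without sham 1, 10 without sham 4, 44 without SBR WUSTL0717 3, 6 without SBR WUSTL0717 4 and 9 without SBR WUSTL0717 5. Of the mitochondrially encoded subunits 11 of 13 fell centred (median −0.57), and none was called as deposited (−0.27).

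Along the gut, subunit genes were lower in ileum than in duodenum, over all 3 groups (22 libraries, mean of the differences within each group). Relative to duodenum, 64 of the 101 members tested in both regions were lower in ileum and 2 were higher (limma, adjusted p under 0.05). Of all 14924 genes 9.34% were lower and 61.4% higher, with a median of +0.84, while the members' median was −0.94 (0.521-fold). After centring 88 members were lower and 1 was higher, with a median of −1.71, where 23.1% of all genes were lower and 23.5% higher and the median of all genes was 0.07. The mean over the subunits ran from 5.99 to 7.92 in the 11 duodenal libraries (6.81 ± 0.634 SD) and from 5.33 to 6.24 in the 11 ileal libraries (5.77 ± 0.258), which overlap, and centred from 3.18 to 5.31 and from 1.75 to 2.72, which do not. Subunits took 1.22 to 3.89% of the summed TPM in duodenum and 0.744 to 1.31% in ileum. Whether ileum and duodenum were taken from the same mice is not stated.

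Complexes II and III had the largest median differences, −1.63 and −1.61, with 4 of 4 and 6 of 8 genes lower. In complex I 25 of 36 genes were lower (−1.05), in complex IV 8 of the 12 tested (−0.93) and in complex V 12 of 17 (−0.96). Sdhd (chr9:50596357-50603812) ran from 7.88 to 9.46 with a median of 8.75 log2 TPM in duodenum and from 6.04 to 7.11 with a median of 6.71 in ileum. Every duodenal library was above every ileal one, which held, in this direction, for 14 members and for 1.88% of all genes. The difference was −2.13 ± 0.21 (adjusted p = 3.7e-08). Uqcrfs1 (chr13:30540308-30545362) ran from 7.42 to 9.35 in duodenum and from 5.87 to 6.75 in ileum, again without overlap, and Uqcrc1 (chr9:108936633-108949623) from 7.55 to 9.46 and from 5.81 to 6.73. Both differed by −2.08 (adjusted p = 1.03e-07 and 1.52e-07). Sdhc, Sdhb and Sdha differed by −1.72, −1.53 and −1.39, and Atp5g3 and Cox6a1 by −1.78 and −1.57.
Not all subunits differed in this way. Atp5b differed by −0.61 (adjusted p = 0.0482), and Cox8a (−0.01) and Atp5g2 (−0.18) were not called as deposited. Estimates above 0 as deposited were found for Ndufv3, Uqcrb, Ndufa8 and Ndufb1-ps, none of them called. Of the 7 assembly factors of complex I, 2 were higher and 2 lower in ileum as deposited, and 1 was higher and 4 lower centred. Ndufaf6 (chr4:11051045-11076205), which acts early in the assembly of complex I, was higher in ileum by 1.44 ± 0.29 (adjusted p = 0.0002) and still higher centred (0.67, adjusted p = 0.036), and Ndufaf7 (chr17:78937136-78948052), a methyltransferase that acts in complex I assembly, was higher by 0.76 ± 0.24 as deposited (adjusted p = 0.00669) and differed by −0.01 centred. Ndufaf4 and Ndufaf8 were lower by 0.83 and 0.82.

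**Figure D4:**
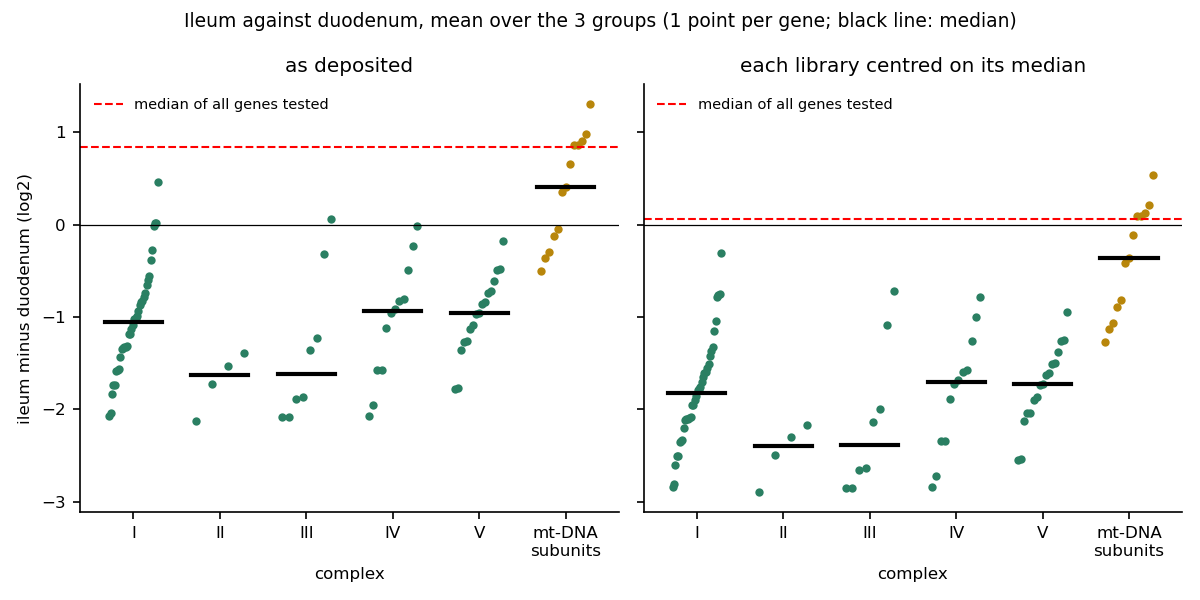
Difference between ileum and duodenum (log2, mean over the 3 groups) for each nuclear subunit gene by complex and for the 13 subunits encoded in mitochondrial DNA, as deposited (left) and centred (right). Black lines are medians and the red dashed line is the median of all genes tested (0.84 and 0.07). Medians of all 5 complexes lie well below this line, those of complexes II and III lowest (−1.63 and −1.61 as deposited), and the mitochondrially encoded subunits lie at 0.41.

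None of the 13 mitochondrially encoded subunits was called between ileum and duodenum as deposited (median +0.41), and 2 were lower centred (−0.36). Cytochrome c was lower in ileum by 1.72, and cytochrome c1 was lower as well. Of 13 TCA cycle enzymes 6 were lower and 1 (Suclg2, +1.76) was higher, with Mdh2 at −2.66. Of the 10 regulators, 7 were higher and 2 lower in ileum as deposited: Ppargc1b was lower by 1.67 and Ppargc1a by 0.77, and the higher ones included Pprc1, Nrf1, Tfam and Gabpa at 1.42, 1.23, 1.14 and 1.12. After centring Pprc1 (0.65, adjusted p = 0.0434) and Nrf1 (0.46, adjusted p = 0.0025) were still higher, Ppargc1b, Ppargc1a and Esrra (−1.45) were lower, and Tfam and Gabpa were not called. Cytosolic ribosomal proteins went the other way from the subunits, with 78 of 84 higher (1.48) and 37 higher centred. All 7 smooth muscle markers tested were higher in ileum as deposited, 1 of them after centring. Of 5 stellate cell and fibroblast markers 4 were higher as deposited and 3 after centring, Lum by 1.78, Dcn by 1.68 and Pdgfrb by 0.74 centred. Of 4 cholangiocyte markers, which other epithelia share, 4 were higher as deposited and 3 centred (Krt19 by 1.05 centred), and of 5 leukocyte markers 2 were higher as deposited, and 1 higher (Lyz2, 1.86) and 1 lower centred. The mean of the acinar markers was 1.77 to 7.52 in duodenum and −0.58 to −0.47 in ileum, and of 9 enterocyte markers 4 were higher and 3 lower as deposited and 2 were higher and 4 lower centred. The part of these cell types in the regional difference was not tested. With 1 library left out, between 59 and 72 members were called as deposited and between 86 and 92 after centring.

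Within the ileum, few members differed between groups. Between SBR vehicle and sham no member was called with limma, none had an unadjusted p under 0.05, the median was −0.14, and 0.349% of all genes were called. The smallest adjusted p among members was 0.737. Between SBR WUSTL0717 and SBR vehicle, where 0.0698% of all genes were called, no member was called and 3 had an unadjusted p under 0.05: Cox7a1 (+1.02, adjusted p = 0.48), Cox8b (+0.97) and Ndufa6 (+0.64). Cox7a1 (chr7:30184144-30186078) had 4.14, 3.44, 3.58 and 3.21 log2 TPM in SBR vehicle ileum, 4.36, 4.19, 4.70 and 5.22 in SBR WUSTL0717 and 3.90, 4.42 and 3.93 in sham. As deposited the drug-treated ilea were all above those of the SBR vehicle group, and centred the groups overlapped.
Against sham, 1 member was called in SBR WUSTL0717 ileum, in the higher direction, where 1.66% of all genes rose and 2.16% were called. This was Cox8b (chr7:140898945-140900446), with 0.59, 0.88 and 0.51 in sham, 1.11, 1.32, 1.26 and 0.91 in SBR vehicle and 1.94, 2.98, 1.35 and 2.21 in SBR WUSTL0717. As deposited the 3 groups did not overlap, with SBR vehicle between the others. Centred, SBR vehicle overlapped with each of the other groups. Its group means were 0.66, 1.15 and 2.12, and it passed the filter on low values, a tissue mean of at least 1, only through the drug-treated libraries, so that its call is given as a description and supports nothing. The difference between SBR WUSTL0717 and sham was 1.46 ± 0.34 (adjusted p = 0.0454) and 1.39 centred (adjusted p = 0.0366). The call was lost when any sham library or drug-treated library 1, 2 or 4 was left out. All these levels are low, and Cox8b is also known from brown fat and muscle. Cidec, the 1 of 5 adipocyte markers measured, ran from 1.73 to 4.97 in sham, 4.23 to 5.61 in SBR vehicle and 6.08 to 6.81 in SBR WUSTL0717 ileum, and rose by 3.36 (adjusted p = 0.0174). The mean of 2 striated muscle markers was 1.78 to 2.07, 2.57 to 3.18 and 2.17 to 2.55 in the same order. Over the 3 groups Cidec was lower in ileum than in duodenum by 1.75 (limma, adjusted p = 2.83e-05), and 1 marker alone cannot show how much fat a sample held. The part of fat or muscle in the Cox8b values was not tested.

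**Figure D5:**
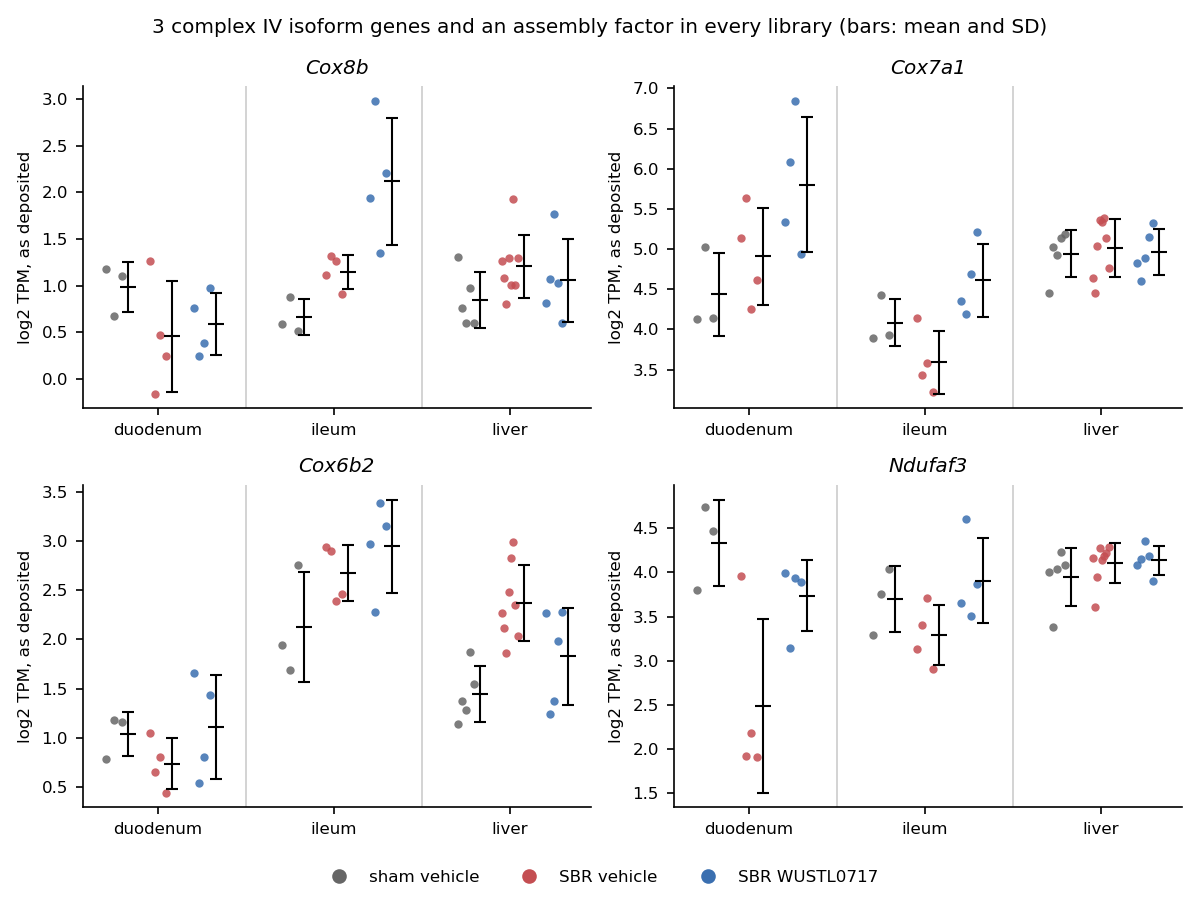
Level (log2 TPM, as deposited) of the complex IV isoform genes Cox8b, Cox7a1 and Cox6b2 and of the assembly factor Ndufaf3 in every library, by tissue and group, with the group mean and SD. In ileum Cox8b lies at 0.51 to 0.88 in sham and 1.35 to 2.98 in SBR WUSTL0717, in liver Cox6b2 lies at 1.14 to 1.88 in sham and 1.86 to 2.99 in SBR vehicle, and in duodenum Ndufaf3 lies at 1.91 to 3.96 in SBR vehicle.

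In duodenum the libraries of a group spread widely. The subunit mean was 6.30, 6.40 and 7.52 in the sham libraries, and ran from 5.99 to 7.42 in SBR vehicle and from 6.41 to 7.92 in SBR WUSTL0717, so that all groups overlapped. Between SBR vehicle and sham no gene at all was called as deposited (0.0% of 15069 genes, 2426 with an unadjusted p under 0.05), and no member was called centred, where 0.637% of all genes were. The members' median was −0.01, against −0.36 over all genes, and 3 members had an unadjusted p under 0.05. Leaving out 1 library moved that median between −0.40 (without sham 3) and 0.33 (without sham 2), and it was also above 0 without SBR vehicle 3 (0.019) or SBR vehicle 4 (0.073). With library weights it was −0.64, and 9 of 101 members were called, all lower, where 17.1% of all genes were called. Ndufaf3 (chr9:108565537-108567434), which joins the early assembly of complex I, had 3.80, 4.75 and 4.47 in sham, 3.96, 1.92, 2.18 and 1.91 in SBR vehicle and 3.99, 3.14, 3.93 and 3.89 in SBR WUSTL0717. Its SBR vehicle library 1 lay among the sham libraries, apart from the other 3, and the difference was −1.84 (unadjusted p = 0.00326, adjusted p = 0.264). Ndufaf5 (chr2:140170649-140203689), which modifies the complex I subunit Ndufs7, differed by −1.24, and Ndufs8, an iron-sulfur core subunit, by −1.51. The median over the 7 assembly factors was −1.08, that over the cytosolic ribosomal proteins −1.52, and the medians of the complexes ran from −0.32 in complex I to 0.23 in complex III.
Between SBR WUSTL0717 and SBR vehicle duodenum no member was called, where 0.272% of all genes were, 85 of 101 had an estimate above 0, the median was +0.54 against +0.04 over all genes, and 6 had an unadjusted p under 0.05. Against sham no member was called either, where 0.737% of all genes were, and 5 had an unadjusted p under 0.05. The smallest adjusted p was that of Cox7a1 (0.249), with 4.13, 5.03 and 4.14 in sham, 5.14, 5.64, 4.25 and 4.61 in SBR vehicle and 5.34, 6.08, 6.85 and 4.94 in SBR WUSTL0717. The drug-treated libraries overlapped the sham libraries with 1 value, and the difference was +1.37.

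Whether the effect of resection differed between tissues was tested by interaction terms. Between liver and duodenum 4 of 101 members differed as deposited, where 29.1% of all genes did (26.6% in favour of liver). The difference of the effects was +2.00 for Ndufaf3 (adjusted p = 0.000735), +1.49 for Ndufaf5 (adjusted p = 0.0115), +1.59 for Atp5g2 (adjusted p = 0.0458) and −1.58 for Atp5l-ps1 (adjusted p = 0.0425). In liver Ndufaf3 had 4.01, 3.39, 4.04, 4.23 and 4.08 in sham and 3.61, 4.17 and 4.29 as lowest, median and highest in SBR vehicle, which overlap. The count ran from 2 to 13 with 1 library left out, with 13 without duodenal SBR vehicle 1 and 9 without duodenal sham 1. After centring 17 members differed, 1 in favour of liver and 16 of duodenum, where 20.8% of all genes differed. By limma on this scale Ndufaf3 (1.28, adjusted p = 0.00183) and Atp5l-ps1 (−2.30, adjusted p = 0.00974) were still called. Ndufaf5 (0.78, adjusted p = 0.0836) and Atp5g2 (0.88, adjusted p = 0.24) were not. Among the subunit genes called, Atp5a1 differed by −1.26 (adjusted p = 0.000846) and Uqcrc1 by −1.18 (adjusted p = 0.00207). No member differed in the effect of resection between liver and ileum (4.9% of all genes) or between ileum and duodenum (0.0603%), by limma as deposited, with 0 and 3 members at an unadjusted p under 0.05.
For the difference between SBR WUSTL0717 and SBR vehicle, no member was called between liver and ileum (0.208% of all genes), between liver and duodenum (0.9%) or between ileum and duodenum (0.0268%) by limma as deposited, and 1, 6 and 0 members had an unadjusted p under 0.05. Centred, Ndufaf3 differed between liver and duodenum by −1.17 (adjusted p = 0.0185), where 1.75% of all genes were called. Between liver and ileum no member was called centred either, by limma, with smallest adjusted p of 0.383 for resection and 0.343 for the drug. The standard errors of these terms were large, as for Sdhb in resection (−0.36 ± 0.40). The subunit genes called in liver after centring are therefore not shown to differ from the ileum in their response to resection or drug. Nor can these tests show that they respond alike.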

How the data were processed

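Total RNA of duodenum, post-anastomotic ileum and liver was depleted of ribosomal RNA and sequenced as paired reads. The authors aligned the reads with STAR to the Ensembl annotation of GRCm38, counted genes with featureCounts and calculated TMM size factors for the counts with edgeR. Their later steps started from TPM, and whether the TMM factors entered these is not stated. They deposited log2 TPM after removal of duplicates and of genes at 0 in every sample, with ComBat applied to batch 1 (intestine) and batch 2 (liver). The pseudocount and read depth are not given in the sources used here, so no counting error could be set on any value. ComBat also rescaled the spread of each batch, which bears on the size of liver against gut effects.

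A gene entered the fits of a tissue when its mean there was at least 1 log2 TPM and its values were not constant. In duodenum 865 of 15958 genes had a lower mean, and 24 further genes were constant. The test was limma (version 3.58.1, R version 4.3.3) with a variance trend and all groups of a tissue in 1 fit, p-values were adjusted over all genes tested after Benjamini and Hochberg, and calls were made at an adjusted p under 0.05. Of 16 comparisons, 9 were within a tissue, 1 was between gut regions and 6 were interactions. Those with liver used all 40 libraries and so pooled the larger spread of the duodenum with that of the liver. Every fit was repeated with each library centred on its median over the tested genes. Replicates were separate samples of a group. Where they did not come from separate mice, p-values cover only the spread between samples. Named members were core subunits, tissue-restricted isoforms and their counterparts, at most 5 called members in each direction per within-tissue comparison (3 in the others) with the smallest p or, with none called, the 3 with the smallest p, the highest and lowest members, and those with a library far from its group. Members named outside this rule (Sdhc, Ndufa5 and other subunits given in the lists of values) were chosen after their values were seen, to fill in the complexes. The members and the pathway and marker lists were chosen with earlier results of these data known. Alternatives were centring, quantile scaling, no filter or a stricter one, a larger pseudocount, no variance trend, array weights, an unmoderated test, replicate blocks, medians over the subunits alone and leaving out each library. The fitting code was checked on simulated data. Summaries used Python 3.11.15, numpy 2.4.6 and pandas 2.3.3. Some isoform genes (Ndufa4l2, Cox4i2, Cox6a2, Cox7b2 and Cox8c) were not analysed here, and single values of some genes are not reported here.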

Additional observations from a re-analysis of the deposited data

Results flagged for a closer look

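In groups of 4 to 10 libraries, 41 of 717 pairs of member and group held a library whose distance to its nearest neighbour, relative to the range of the group, was above Dixon's 95% limit, in 34 members. Chance alone passes this limit in about 1 in 20 groups, and no cause was tested. Of these, 13 were the library liver SBR vehicle 2 as the lowest of its group (log2 TPM): Atp5g1 (5.545), Cox5a (6.704), Cox5b (7.32), Cox6b1 (8.447), Cox7b (6.732), Ndufa1 (6.839), Ndufa12 (5.36), Ndufa3 (5.881), Ndufaf6 (3.255), Ndufb10 (6.906), Ndufs6 (6.438), Uqcr10 (7.875) and Uqcrfs1 (7.557). In the other livers, SBR vehicle 6 stood apart for Cox8b (1.93), sham 2 was lowest for Ndufaf3 (3.386), Ndufaf4 (2.912) and Ndufaf5 (2.645), sham 5 stood apart for Ndufaf6 (3.723), SBR WUSTL0717 3 for Ndufa13 (8.486) and Sdhb (8.269), and SBR WUSTL0717 1 for Uqcrfs1 (8.404).

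In ileum, SBR WUSTL0717 2 was highest for 6 members, Atp5k (7.328), Atp5pb (6.582), Ndufa7 (5.89), Ndufaf5 (3.62), Ndufaf6 (4.883) and Ndufs3 (5.993). Ileal SBR WUSTL0717 3 stood apart for Atp5md (3.417) and Cox6c (4.655), SBR WUSTL0717 4 for Cox7c (6.835) and Ndufb4 (6.015), and the SBR vehicle libraries 1, 2 and 3 for Uqcrb (6.856), Ndufa7 (4.346), and Ndufa11b (1.442) and Ndufab1-ps (4.756). In duodenum, SBR WUSTL0717 1 was lowest for Atp5l-ps2 (1.633) and Uqcrh-ps2 (2.402), SBR WUSTL0717 3 stood apart for Ndufa2 (10.049) and SBR WUSTL0717 2 for Ndufaf3 (3.144). Duodenal SBR vehicle 1 stood apart for Ndufaf3 (3.959) and Ndufb4c (0.557).

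As deposited, the effect of SBR differed between liver and duodenum by the interaction test for Ndufaf3 (2.00), Ndufaf5 (1.49), Atp5g2 (1.59) and Atp5l-ps1 (−1.58), given as liver minus duodenum on the log2 scale. After centring, Ndufaf5 and Atp5g2 were not called.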

How the results depend on the processing

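Values are log2 TPM without read counts, so counting error in low members such as Cox8b and Cox6b2 is not known, and groups of 3 to 8 libraries limit every test. Centring decides the liver counts. The share of all genes called in the same fit stands in parentheses. For SBR vehicle minus sham liver, 6 members were called as deposited (41.9%), 93 centred (49.2%, median −0.429), 84 after quantile scaling (49.2%), 19 with library weights (65.8%), of which 5 were higher, 13 with a replicate block (35.1%), and 1, higher, with an unmoderated two-sample test (36.2%). For SBR WUSTL0717 minus SBR vehicle liver, 1 was called as deposited (4.12%), 70 centred (19.7%), 46 after quantile scaling (16.6%), 10 with weights (17.7%), and 0 with an unmoderated test (0.0%) or a filter at 3 (3.45%). For SBR WUSTL0717 minus sham liver, 0 were called as deposited (28.7%), 23 lower centred (19.6%, median −0.158) and 19 lower after quantile scaling (20%, −0.135), whereas 10 with weights (52.7%), 9 unmoderated (36.2%) and 2 with the block (38.2%) were all higher. The 1 ileal call against sham (2.16%) became 0 with a filter at 3 (3.28%), a pseudocount of 5 (1.92%), an unmoderated test (0.197%) or the block (0.558%), and 2 with weights (4.9%). Library weights gave 9 calls for SBR vehicle minus sham duodenum (17.1%, median −0.641), 1 for SBR WUSTL0717 minus sham duodenum (6.91%), 5 for the ileum minus duodenum effect of SBR (13.9%), and 29 for that of liver minus duodenum (49.6%), where 17 were called centred (20.8%). For the drug effect in liver minus duodenum, 1 was called centred (1.75%) and 2 with quantile scaling (1.38%) or weights (2.07%). The regional count was 66 as deposited (70.8%), 89 centred (46.5%), 83 with quantile scaling (48.4%), 80 with weights (77.3%) and 67 with the block (70.5%). The unmoderated test called 0 members in each of the other duodenal and ileal comparisons. The cause of these shifts was not tested.

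Atp5g2 in SBR WUSTL0717 minus sham liver turned to −0.056 centred and −0.053 after quantile scaling, and Ndufaf7 between regions to −0.007 centred. In SBR vehicle minus sham liver, weights turned Uqcrfs1 to 0.020, Cox4i1 to 0.050 and Atp5b to 0.049. Leaving out 1 library turned Ndufs1 to 0.025 and Cox4i1 to 0.032 (without SBR vehicle 2), Uqcrfs1 to 0.013 and 0.038 (without sham 4 or SBR vehicle 2) and Atp5b to 0.005, 0.024, 0.063 and 0.013 (without sham 1, sham 4, SBR vehicle 2 or SBR vehicle 3). Over all omissions Ndufs1 ran from −0.134 to 0.025, Uqcrfs1 from −0.095 to 0.038, Cox4i1 from −0.079 to 0.032 and Atp5b from −0.070 to 0.063. Of all values of named members under the alternatives, 14 reversed, 109 lost and 54 gained the call, and 1474 kept direction and side of the threshold.

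With 1 library left out, calls ranged from 0 to 1 for SBR vehicle minus sham duodenum, 0 to 1 for SBR WUSTL0717 minus sham ileum, 1 to 14, 0 to 3 and 0 to 0 for the 3 liver comparisons in the order above, 0 to 1 for the ileum minus duodenum and 2 to 13 for the liver minus duodenum effect of SBR, and 0 to 1 for the drug effect in liver minus duodenum. The members' median ranged from −0.402 to 0.331, 0.240 to 0.782 and 0.129 to 0.658 in duodenum (SBR vehicle minus sham, SBR WUSTL0717 minus SBR vehicle, SBR WUSTL0717 minus sham), from −0.230 to −0.004, −0.086 to 0.173 and −0.188 to 0.049 in ileum, and from −0.174 to −0.024, 0.188 to 0.308 and 0.081 to 0.169 in liver. Centred, calls for SBR WUSTL0717 minus sham liver ranged from 6 to 44, for SBR WUSTL0717 minus SBR vehicle liver from 48 to 81 and for SBR vehicle minus sham liver from 91 to 95. The omissions on centred values were chosen after seeing the data.

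Same-numbered libraries of different groups within a tissue had mean correlations of their deviations of 0.009 over 10 pairs in duodenum, −0.051 over 10 in ileum and −0.012 over 15 in liver. The 11 same-numbered pairs of ileum and duodenum had a mean of 0.126 (−0.142 to 0.468), against −0.046 for differently numbered ones. Because not every pair was above 0.1, the numbers were not taken as pairs and the replicate block was used only as an alternative.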
